A study of Mus musculus with 40 samples.

Results

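The enzymes of the kynurenine pathway were described in mouse kidney cortex as the 10 rows of the deposited count table, out of 55401, that carry the symbols Tdo2, Ido2, Afmid, Kmo, Kynu, Haao, Acmsd, Qprt, Kyat1 and Aadat. The genes were selected on earlier results of these same libraries, with no record of which values were used. The difference between Akita and WT mice on the ethanol vehicle was taken to be among them and is given as a description without a test, and since values of the other arms may also have played a part, p-values over those arms may not be independent of the choice. Total RNA, depleted of ribosomal RNA, was sequenced from the kidney cortex of 40 male mice, 5 in each of 8 groups, to ask what diabetes, MitoGamide and MitoQ do to kidney transcripts. All mice were C57BL/6J. Akita mice were heterozygous for the Ins2-Akita mutation, which misfolds insulin, damages pancreatic beta cells and so gives diabetes with low insulin, and WT mice were their littermates. From 6 to 22 weeks of age, mice of each genotype received 10% ethanol in water, MitoGamide at 10 mg/kg daily by gavage in that vehicle, water, or MitoQ. MitoGamide is a mitochondria-targeted scavenger of reactive dicarbonyls such as methylglyoxal, and MitoQ is a mitochondria-targeted antioxidant whose dose is not given in the sources used here. The cortex holds tubules, glomeruli, vessels and immune cells together, so that a lower level in whole cortex can come from fewer cells of a type or from less RNA per cell, which cannot be told apart here.

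The kynurenine pathway is the main route by which tryptophan is broken down. It opens the indole ring, releases kynurenine and then divides into a branch that ends in kynurenic acid and a branch that ends either in NAD or in complete oxidation of the carbon skeleton. Liver and proximal tubule of the kidney carry most of the later enzymes, and kynurenine metabolites are cleared into urine and can act on the aryl hydrocarbon receptor and on GPR35.

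Libraries held from 9106654 to 24321424 estimated counts. Levels are given as CPM, counts scaled to a common library total after TMM normalization, which sets libraries of different composition on 1 scale. In 8 libraries, all from mice on water or MitoQ (3 Akita and 3 WT on water, 1 Akita and 1 WT on MitoQ), the 50 most abundant genes took more than 50% of all counts, up to 77.5%, and results of these arms are also given without them where they change. In 1 further WT library on water (replicate 1), 8 liver transcripts summed to 436.6 CPM, against 4.16 to 44.2 CPM in the other 39 libraries. Markers of proximal tubule were present throughout, with a summed level of 10860 to 21450 CPM over 14 genes.

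To place the members on 1 scale, their levels were divided by the length of the exons of their coding transcripts. In WT mice on the ethanol vehicle Haao stood first at 71.1 ± 12.9 CPM per kb (SD, n = 5), followed by Aadat at 66.9 ± 12.8, and these neighbours did not differ beyond their spread. Next came Acmsd at 41.9 ± 4.53 and Kmo at 30.7 ± 2.27 CPM per kb, and then Kyat1 (21.6 ± 2.85), Qprt (18.4 ± 2.39) and Afmid (16.7 ± 4.75), which lay within 1 another's spread. Ido2 (2.60 ± 0.71), Kynu (1.37 ± 0.31) and Tdo2 (0.12 ± 0.04) were far lower. In Akita mice on the same vehicle Kynu stood at 8.09 ± 1.14 CPM per kb, above Ido2 and close to Afmid at 10.3 ± 1.32, while Haao (56.2 ± 5.79) and Aadat (33.4 ± 6.76) had the 2 highest means. Aadat did not differ there beyond the spread from Acmsd (26.8 ± 9.73) or Kmo (24.0 ± 5.42).

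Kynureninase (Kynu, chr2:43555329-43682715, plus strand, GRCm38), which cleaves 3-hydroxykynurenine to 3-hydroxyanthranilate and kynurenine to anthranilate, was higher in every Akita mouse than in every WT mouse. WT mice on water had 4.66, 7.40, 3.39, 4.03 and 6.10 CPM, and Akita mice on water had 44.7, 31.7, 18.0, 56.6 and 39.6 CPM. On MitoQ the WT values were 3.60, 7.51, 6.92, 6.08 and 4.19 CPM and the Akita values 39.6, 19.5, 21.3, 40.7 and 33.7 CPM. The lower values of the Akita mice on these treatments (18.0, 19.5 and 21.3 CPM) still exceeded all WT values by a wide margin. On the ethanol vehicle WT mice had 5.25, 8.30, 7.96, 5.24 and 6.04 CPM, and Akita mice 41.7, 32.3, 46.2, 35.7 and 37.2 CPM. On MitoGamide WT mice had 8.84, 8.97, 6.99, 6.68 and 8.12 CPM, and Akita mice 36.4, 45.9, 34.2, 32.1 and 35.2 CPM. The highest WT value of all was 8.97 CPM and the lowest Akita value 18.0 CPM, and Akita mice on the ethanol vehicle and on MitoGamide lay closer to each other than those on water.

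Akita mice were compared with WT mice in 1 fit over the 30 libraries of the water, MitoQ and MitoGamide arms, leaving out the ethanol vehicle. Of the 10 members, 6 had an adjusted p under 0.05 by edgeR's quasi-likelihood method. In Akita mice 1 of them was higher and 5 were lower, where 13.5% of all 17778 tested genes passed (7.77% higher and 5.71% lower). Kynu rose 5.84-fold (log2 fold change 2.55, SE 0.15, adjusted p = 2.572e-13), and its groups did not overlap over the 3 arms, as was the case for 0.214% of genes in this direction. The 5 lower members were Aadat, Afmid, Ido2, Qprt and Haao, whereas Tdo2, Kmo, Acmsd and Kyat1 did not pass. The median log2 fold change of all tested genes was 0.00.

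Within single arms, the fits on 10 libraries each gave the same picture for Kynu. It rose on water (log2 fold change 2.90, SE 0.32, adjusted p = 0.003005), where 0.552% of genes passed, and on MitoQ (2.48, SE 0.26, adjusted p = 0.00111), where 0.557% passed. On MitoGamide it rose by 2.25 (SE 0.12, adjusted p = 3.821e-06), with 14.3% of genes passing, and on the ethanol vehicle the difference was 2.56 (SE 0.14), where 16.4% passed. The groups did not overlap in any arm, as for 0.896% of genes in this direction on water, 1.40% on MitoQ, 6.80% on MitoGamide and 6.19% on the ethanol vehicle. The fits on water, MitoQ and MitoGamide use the same libraries as the joint fit and are not independent of it. The values on the ethanol vehicle are a description. Whether the size of the rise differed between MitoQ and water was tested as the interaction, which was -0.42 on the log2 scale (95% interval -1.32 to 0.47, adjusted p = 1.00), an interval that includes 0. The value leaned on single libraries. It was -0.23 without Akita replicate 4 on water and -0.61 without Akita replicate 3 on water, and passed in neither fit.

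**Figure D1:**
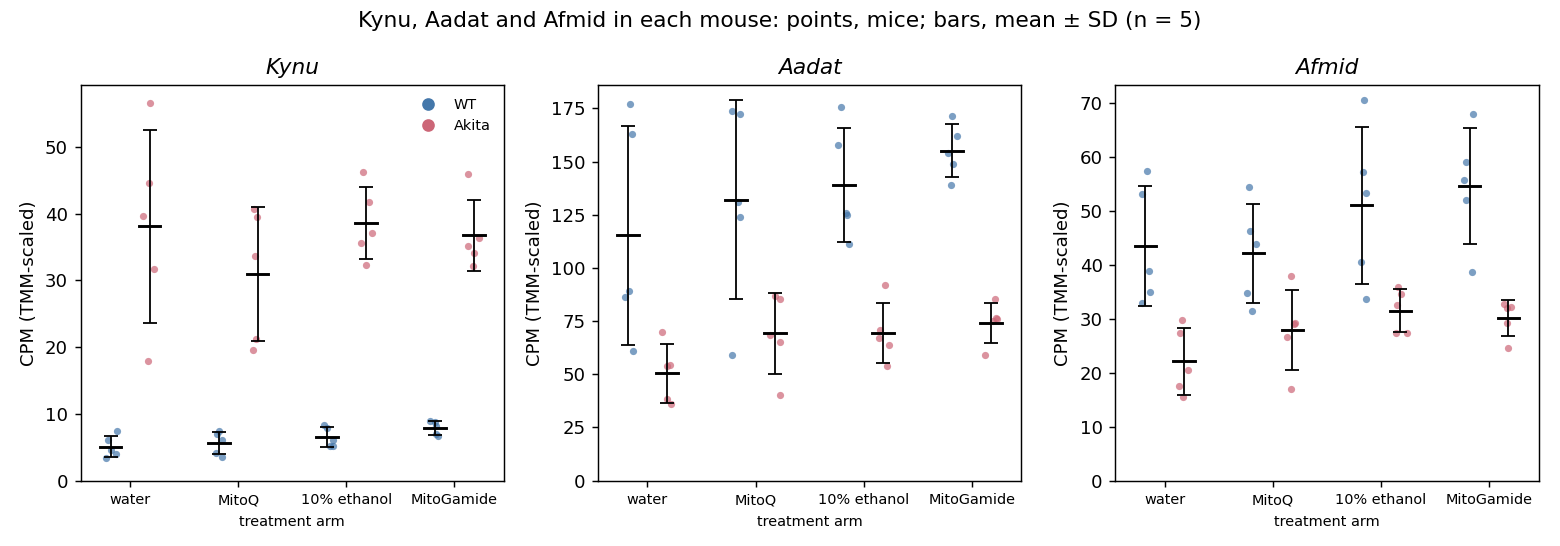
Level of Kynu, Aadat and Afmid (CPM after TMM scaling, linear axis from 0) in each of the 40 mice by treatment arm, WT in blue and Akita in red, with the mean and SD of the 5 mice in a group. All Kynu values of Akita mice (18.0 CPM and above) lie above all values of WT mice (8.97 CPM and below), while Aadat and Afmid are lower in Akita mice with some overlap.

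Both aminotransferases among the members turn kynurenine into kynurenic acid, and 1 of them was lower in Akita mice. Aadat (chr8:60505932-60545677, plus strand), also known as kynurenine aminotransferase II and as an enzyme of lysine breakdown, fell in Akita mice to 0.487 of the WT level in the joint fit (log2 fold change -1.04, SE 0.15, adjusted p = 1.089e-05). WT mice had 177.3, 60.9, 89.3, 86.5 and 162.8 CPM on water and 131.1, 124.1, 59.0, 172.3 and 173.9 CPM on MitoQ. Akita mice had 53.8, 38.2, 54.5, 69.9 and 36.0 CPM on water and 68.6, 85.5, 65.2, 40.2 and 86.7 CPM on MitoQ. The 4 lowest WT values (59.0, 60.9, 86.5 and 89.3 CPM) were those of the 4 WT libraries in which few genes took most counts. With ethanol WT mice had 175.5, 158.0, 125.7, 124.7 and 111.3 CPM and Akita mice 70.6, 67.3, 92.1, 54.0 and 63.7 CPM. On MitoGamide the WT values were 154.1, 171.6, 161.9, 139.0 and 148.8 CPM and the Akita values 59.2, 74.8, 76.0, 85.2 and 76.3 CPM.

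In the single arms Aadat fell on MitoGamide (log2 fold change -1.03, SE 0.10, adjusted p = 0.0001323), without overlap, as for 5.97% of genes in this direction. On the ethanol vehicle the difference was -0.98 (SE 0.15), on water -1.19 (SE 0.31, adjusted p = 0.161) and on MitoQ -0.94 (SE 0.29, adjusted p = 0.241). The sizes on water and MitoQ were like those of the other arms, and the spread between libraries was larger. Without the libraries led by few genes, the joint fit gave -1.16 (SE 0.105, adjusted p = 4.644e-08) and the water arm -1.48 (SE 0.17, adjusted p = 0.009192). That water fit had 4 libraries, with WT values of 177.3 and 162.8 CPM and Akita values of 53.8 and 69.9 CPM. The first WT value, the highest of all 40 mice, is from the library with liver transcripts. The MitoQ arm then gave -1.21 (SE 0.22, adjusted p = 0.02502), so that Aadat passed there too.

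Kyat1 (chr2:30185124-30205847, minus strand), kynurenine aminotransferase I and also a cysteine conjugate beta-lyase, did not pass in the joint fit (log2 fold change 0.03, 95% interval -0.15 to 0.21, adjusted p = 0.899). Its group means lay between 47.7 ± 8.39 CPM in WT mice on MitoGamide and 68.0 ± 5.07 CPM in WT mice on water (SD, n = 5). The log2 ratio of these means, Akita over WT, was -0.24 on water, -0.05 on MitoQ, 0.01 on the ethanol vehicle and 0.31 on MitoGamide. The joint value thus averages arms of both signs. Kyat1 did not pass in the single fits on water, MitoQ or MitoGamide. In Akita mice on MitoGamide it was at 65.6, 50.3, 43.9, 51.0 and 85.9 CPM, so that the last mouse carried the highest value of all 40. The 95% interval of the joint difference does not reach the fall of Aadat.

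The ring-opening dioxygenases were scarce. Tdo2 (chr3:81957090-81976202, minus strand), the tryptophan dioxygenase that dominates in liver, had 1 to 25 counts in 39 libraries and 100 counts (7.17 CPM) in the WT library on water with liver transcripts. Over the joint fit its log2 fold change was -0.83 (SE 0.35, adjusted p = 0.131), a value that rests on that library, without which the gene fell under the count minimum of the fit. It also turned on Akita replicate 5 on MitoGamide, without which Tdo2 passed (-1.03, SE 0.35, adjusted p = 0.0478). Its value on water of -1.98 (SE 0.68, adjusted p = 0.390) became -0.80 (SE 0.39, adjusted p = 0.938) when that library was left out. In the arms on MitoQ, the ethanol vehicle and MitoGamide the gene stayed under a mean of 10 counts and was not tested between genotypes. Ido1, the dioxygenase induced by interferon gamma, had at most 11 counts in any library and was not tested.

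Ido2 (chr8:24531892-24576333, minus strand), a close relative of Ido1, had 19 to 165 counts per library. It was lower in Akita mice in the joint fit (log2 fold change -0.46, SE 0.16, adjusted p = 0.0482), close to the threshold. On MitoGamide the WT values were 8.30, 8.04, 6.37, 6.12 and 5.54 CPM and the Akita values 1.95, 4.48, 5.19, 5.01 and 1.82 CPM. Those groups did not overlap, as for 5.97% of genes in this direction, yet the difference of -0.83 (SE 0.28) had an adjusted p of 0.0693. It passed on MitoGamide in DESeq2 (-0.85, SE 0.29, adjusted p = 0.0261) and in 1 fit of all 40 libraries (-0.87, SE 0.24, adjusted p = 0.0155), and in the other settings had an adjusted p of 0.0594 to 0.0751. On water and MitoQ the groups overlapped, with -0.32 (SE 0.22, adjusted p = 0.943) and -0.24 (SE 0.23, adjusted p = 0.897), and on the ethanol vehicle the difference was -0.44 (SE 0.17). Leaving out 1 library at a time, the gene passed 13 of 30 times.

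Arylformamidase (Afmid, chr11:117825924-117839908, plus strand), which frees kynurenine from N-formylkynurenine, fell in Akita mice to 0.579 of the WT level (log2 fold change -0.79, SE 0.12, adjusted p = 2.125e-05). WT mice had 57.4, 32.9, 38.9, 53.2 and 35.0 CPM on water, and Akita mice 17.5, 20.4, 27.3, 15.4 and 29.8 CPM. On MitoQ the WT values were 43.8, 54.4, 31.4, 34.7 and 46.3 CPM and the Akita values 37.9, 26.6, 29.0, 17.0 and 29.2 CPM. The groups were apart on water, as for 1.61% of genes in this direction, and on MitoQ the first Akita mouse overlapped with the WT mice. Given ethanol, WT mice had 70.6, 40.5, 53.3, 57.2 and 33.6 CPM and Akita mice 35.8, 34.6, 27.3, 27.3 and 32.5 CPM. On MitoGamide WT mice had 52.0, 55.6, 59.0, 68.0 and 38.6 CPM and Akita mice 32.7, 29.2, 32.0, 32.2 and 24.6 CPM, without overlap, as for 5.97% of genes in this direction. The single-arm differences were -0.82 on MitoGamide (SE 0.14, adjusted p = 0.003516), -0.98 on water (SE 0.22, adjusted p = 0.0878), -0.60 on MitoQ (SE 0.21, adjusted p = 0.332) and -0.67 on the ethanol vehicle (SE 0.17). Without the libraries led by few genes, the value on water was -1.51 (SE 0.24, adjusted p = 0.0292). This fit had 4 libraries, with WT values of 57.4 and 35.0 CPM and Akita values of 17.5 and 15.4 CPM. The first WT value is from the library with liver transcripts.

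Kynurenine monooxygenase (Kmo, chr1:175620381-175662116, plus strand), the mitochondrial outer membrane enzyme that makes 3-hydroxykynurenine, did not pass in the joint fit (log2 fold change -0.19, 95% interval -0.50 to 0.11, adjusted p = 0.485). It spread widely on water, from 50.02 to 123.3 CPM in WT mice and from 44.5 to 129.3 CPM in Akita mice. In the ethanol arm WT mice ranged from 114.9 to 137.1 CPM and Akita mice from 71.9 to 128.0 CPM. Kmo and Kynu act on the same intermediates, and the ratio of their CPM, given as a description, was 0.0433 to 0.149 Kynu per Kmo in the 20 WT mice and 0.235 to 0.890 in the 20 Akita mice. Aadat, which competes with Kynu for kynurenine, stood at 8.23 to 41.5 times Kynu in WT mice and at 0.910 to 4.37 times Kynu in Akita mice. Both ratios contain Kynu, whose own levels were already apart.

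Haao (chr17:83831156-83847963, minus strand) opens the ring of 3-hydroxyanthranilate and gives the unstable precursor of quinolinic acid. WT mice had 114.9, 67.4, 80.8, 94.7 and 83.0 CPM on water, and Akita mice 56.2, 46.3, 70.3, 52.9 and 75.0 CPM. On MitoQ the WT values were 87.6, 100.7, 59.7, 70.2 and 82.1 CPM and the Akita values 85.2, 63.4, 70.6, 46.5 and 78.7 CPM, and on MitoGamide they were 94.2, 103.7, 102.5, 103.0 and 85.7 CPM in WT and 85.2, 90.6, 82.5, 101.7 and 67.1 CPM in Akita mice. The groups overlapped in each of these arms. On the ethanol vehicle WT mice had 115.8, 87.7, 115.8, 116.6 and 77.6 CPM and Akita mice 93.4, 85.3, 72.7, 75.0 and 79.5 CPM, which overlapped too. The joint difference was small (log2 fold change -0.30, SE 0.10, adjusted p = 0.0455). With single libraries removed in turn, Haao passed 17 of 30 times. The 13 fits that lost the call included the 1 without the WT library on water with liver transcripts. That library had 114.9 CPM of Haao, and without it the difference was -0.27 (SE 0.10, adjusted p = 0.0645).

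At the next step the pathway divides once more. Acmsd (chr1:127729413-127767978, plus strand) removes the carboxyl group that leads to quinolinic acid and so steers carbon towards oxidation, whereas Qprt (chr7:127107114-127122226, minus strand) turns quinolinic acid into the first nucleotide of NAD synthesis. Qprt fell in Akita mice (log2 fold change -0.38, SE 0.10, adjusted p = 0.009052). Its values on water were 46.5, 29.2, 24.3, 33.0 and 43.9 CPM in WT mice and 29.8, 19.96, 23.0, 22.9 and 22.8 CPM in Akita mice. On MitoGamide they were 35.2, 38.8, 41.5, 39.6 and 33.0 CPM in WT mice and 28.7, 32.3, 33.4, 31.2 and 18.5 CPM in Akita mice, where the groups overlapped only slightly. On MitoQ WT mice ranged from 22.7 to 38.8 CPM and Akita mice from 21.3 to 34.1 CPM. In the ethanol arm the genotypes overlapped widely for Qprt, with 30.4 to 43.9 CPM in WT and 31.5 to 39.6 CPM in Akita mice and a difference of -0.05 (SE 0.09).

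Acmsd did not pass in the joint fit (log2 fold change -0.33, SE 0.15, adjusted p = 0.160). It passed once the libraries led by few genes were left out (-0.41, SE 0.12, adjusted p = 0.0211). On the ethanol vehicle WT mice had 115.9, 99.9, 101.9, 124.8 and 125.9 CPM and Akita mice 90.0, 93.0, 54.0, 35.5 and 91.4 CPM, which did not overlap, as for 6.52% of genes in this direction. In CPM, Acmsd stood at 1.01 to 4.34 times Qprt over all 40 mice, with group medians between 1.77 in WT mice on water and 2.997 in Akita mice on MitoGamide.

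**Figure D2:**
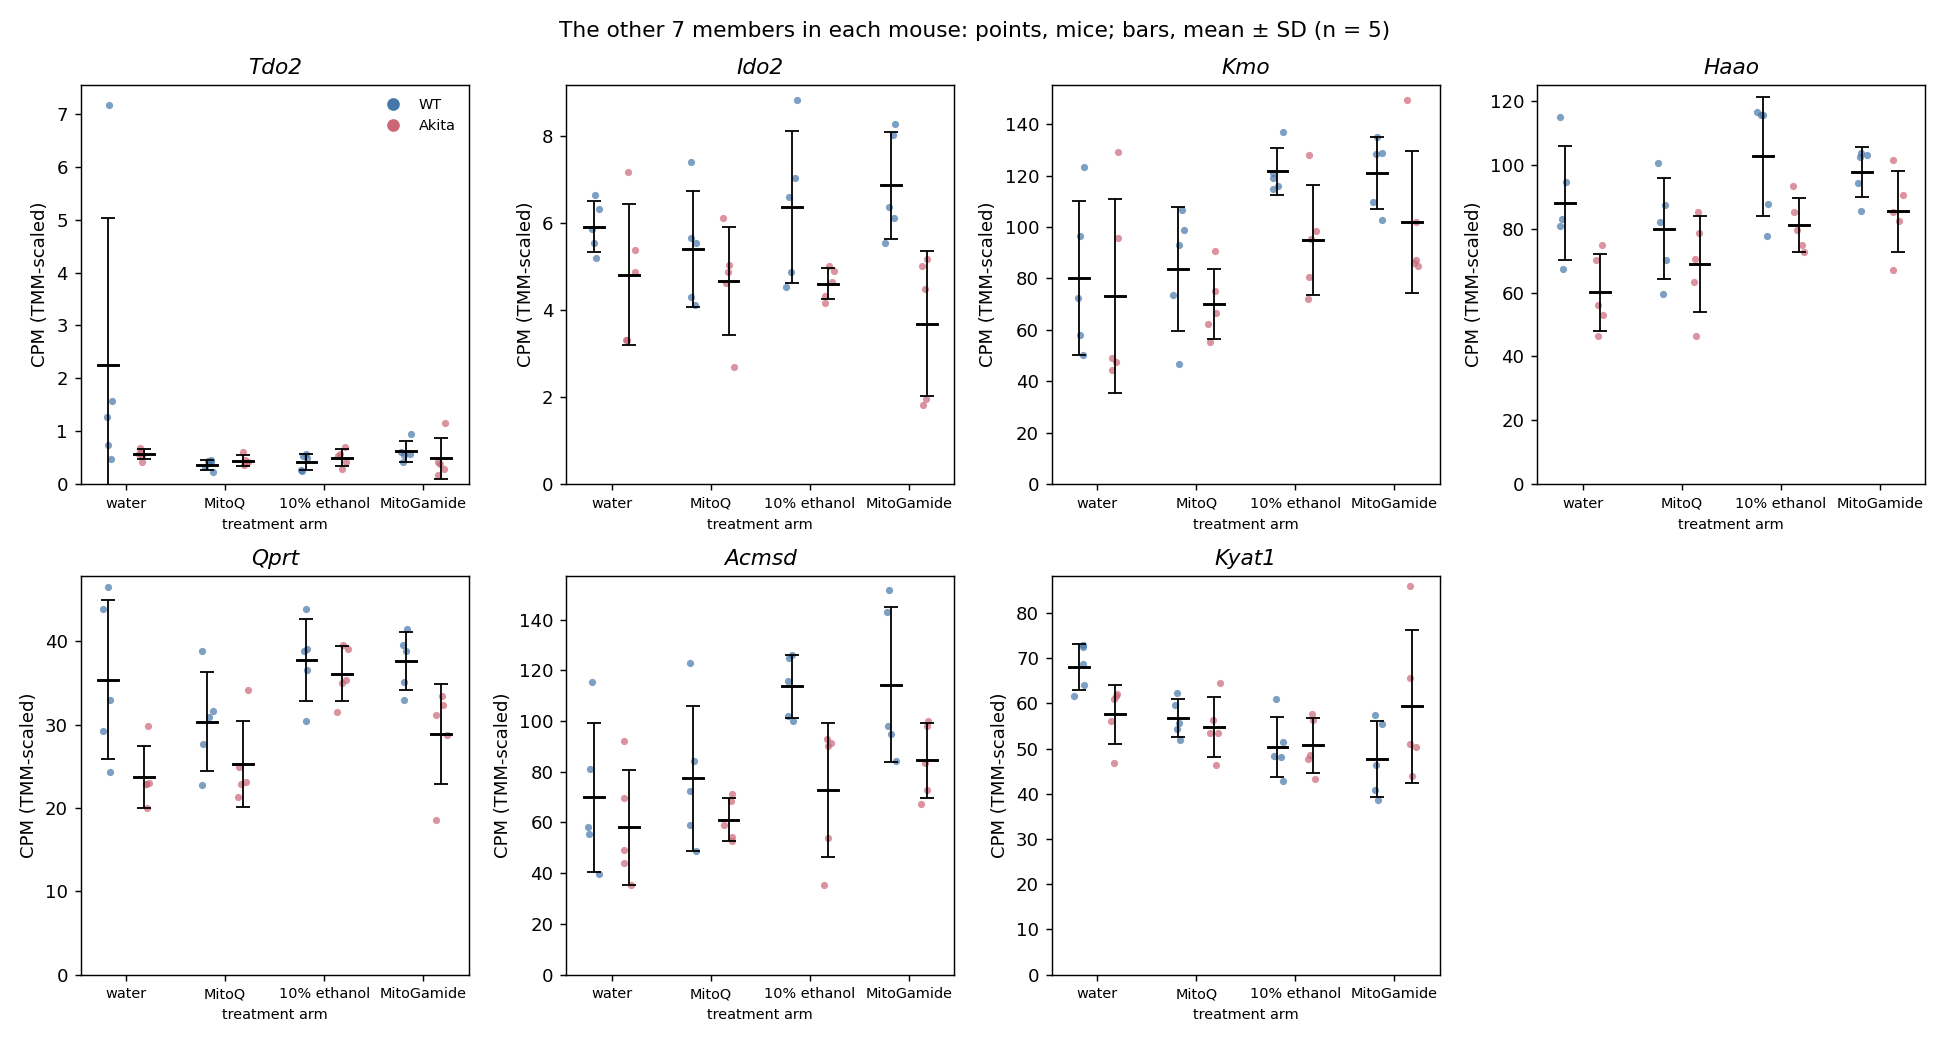
Level of the other 7 members (CPM after TMM scaling, linear axes from 0 that differ between panels) in each mouse by treatment arm, WT in blue and Akita in red, with mean and SD of 5 mice. The lone Tdo2 value of 7.17 CPM is the WT library on water with liver transcripts, and the error bar of its group reaches below the axis. The genotypes overlap in most panels.

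**Figure D3:**
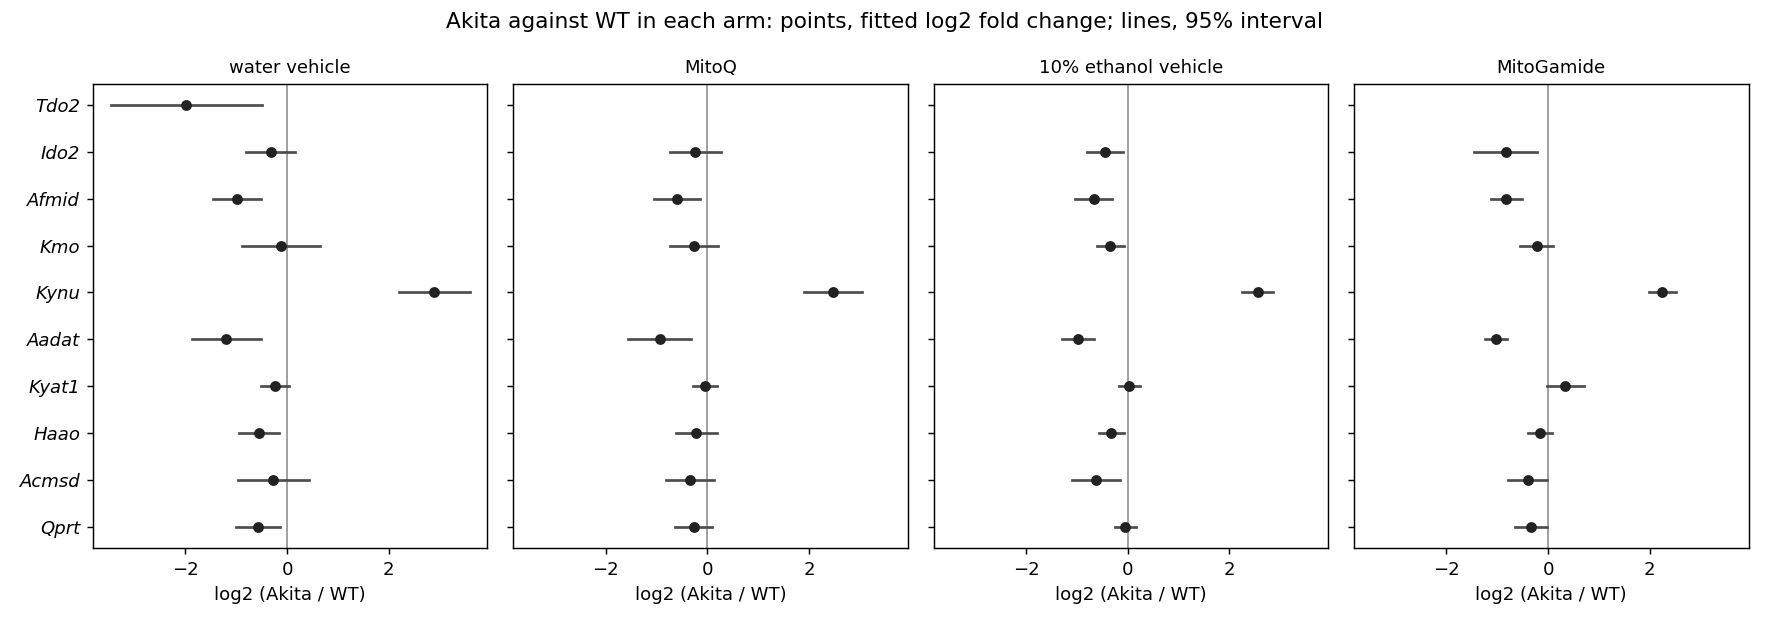
Fitted log2 fold change of Akita against WT mice for each member (rows, in pathway order) in the 4 arms, with 95% intervals from edgeR fits on 10 libraries each. On water, MitoQ and MitoGamide Kynu lies between 2.25 and 2.90 and Aadat between -1.19 and -0.94. The ethanol arm, taken to be behind the choice of genes, is shown as a description, and its intervals are no test. Tdo2 has no point where its mean was under 10 counts.

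Around the members, genes of the pathway and its surroundings were taken from lists. Of all genes tested in the joint fit, 13.5% passed (7.77% higher and 5.71% lower), and the counts below stand beside these shares. Of 6 further pathway genes (Ido1, Kyat3, Got2, Aldh8a1, Dhtkd1 and Gcdh), 5 were tested and 1 was lower in Akita mice in the joint fit, with a median log2 fold change of 0.01 over the 5. This was Aldh8a1 (-0.41, SE 0.07, adjusted p = 5.554e-05), which oxidizes the aldehyde formed by Acmsd. Kyat3, a further kynurenine aminotransferase, was at 0.07 (SE 0.11, adjusted p = 0.773). Of 12 genes of NAD synthesis and nicotinamide turnover, 9 were tested and 1 rose, a count near the share of all genes, with a median of -0.05. The 1 was Nampt, the rate-limiting enzyme of NAD salvage from nicotinamide (0.55, SE 0.14, adjusted p = 0.007246), so that Nampt rose and Qprt fell in the same fit.

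Of 13 genes that supply tryptophan or use it otherwise, 11 were tested, 5 rose and the other 6 did not pass, with a median of 0.37. By smallest p the 5 were led by Slc3a2, the heavy chain of amino acid exchangers (0.52, SE 0.11, adjusted p = 0.0009814), Slc36a4, a tryptophan and proline carrier (0.37, SE 0.09, adjusted p = 0.00357), and Slc6a19, the apical neutral amino acid transporter of the proximal tubule (0.60, SE 0.16, adjusted p = 0.008442). Of 8 genes of the aryl hydrocarbon receptor response and GPR35, 6 were tested and Cyp1b1 rose (0.57, SE 0.15, adjusted p = 0.009049), with a median of 0.05. Ahr itself was at 0.06 (SE 0.09, adjusted p = 0.756), Tiparp at -0.09 (SE 0.12, adjusted p = 0.731) and Gpr35 at 0.53 (SE 0.19, adjusted p = 0.0607), and Cyp1a1 was too low to be tested.

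Markers of cell types also moved with genotype. Of 14 proximal tubule genes, 1 rose (Slc5a1, 0.47, SE 0.16) and 3 fell, namely Slc7a13 of the straight segment (-1.58, SE 0.27, adjusted p = 8.521e-05), Slc27a2 (-0.45, SE 0.09) and Slc34a1 (-0.27, SE 0.09), with a median of -0.07. Their summed level ranged from 11170 to 21450 CPM over the WT groups and from 10860 to 17950 CPM over the Akita groups. Of 8 macrophage genes, 2 fell (Csf1r, -0.72, SE 0.10, and Ptprc, -0.46, SE 0.08) and the others did not pass, with a median of -0.04. The sum of the 8 was 59.9 to 106.8 CPM in WT and 39.3 to 67.5 CPM in Akita mice. Csf1r and Ptprc had the highest levels of the 8 in every group, so that the sum mostly follows these 2. The others did not all go 1 way. On water the mean of Cd68 was 1.27 CPM in WT and 1.79 CPM in Akita mice, and that of Adgre1 was 3.20 and 2.23 CPM. Of 4 endothelial genes, 2 rose (Cdh5 and Pecam1, each 0.34, SE 0.09), while Kdr was at -0.06 (SE 0.09) and Emcn at -0.13 (SE 0.09), with a median of 0.14. Of 8 liver genes, 6 were tested and Ahsg fell (-3.32, SE 1.09, adjusted p = 0.0377), where the WT library with liver transcripts is part of the fit. The part of these shifts in the levels of the members was not tested.

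Comparing each gene's centred log2 profile over the 8 groups with that of Kynu, by the root mean square difference among 17769 genes, the 5 nearest were Gm10639 (0.27), Aldh1a1 (0.37), Slc38a3 (0.39), Hacl1 (0.40) and Gsta2 (0.40). Slc38a3, a glutamine carrier, went from 14.2 to 85.2 CPM between WT and Akita mice on the ethanol vehicle. Hacl1, a lyase of peroxisomal alpha-oxidation, went from 34.8 to 104.3 CPM, and Gsta2, a glutathione transferase, from 94.8 to 289.5 CPM. These genes were found by their likeness, which is no test.

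MitoGamide was compared with the ethanol vehicle in each genotype. These comparisons share the ethanol vehicle libraries with the difference taken to be behind the choice of genes, so that their values for the members are not independent of that choice. None of the 9 tested members passed in Akita mice, where 1.26% of genes passed in edgeR, and DESeq2 also called 0 members, where 6.27% of genes passed. With the replicate number as a block 0.00% of genes passed. The lowest p belonged to Qprt (log2 fold change -0.31, 95% interval -0.62 to 0.00, adjusted p = 0.245). Akita replicate 5 on MitoGamide, part of this fit, had 18.53 CPM of Qprt, against 28.7 to 33.4 CPM in the other mice of its group. No member reached an unadjusted p under 0.05 in this edgeR fit, as 20.9% of genes did. Qprt did so in DESeq2 (unadjusted p = 0.0454, adjusted p = 0.220) and in edgeR under 4 other settings, with an adjusted p of 0.214 to 0.382. For Kynu the difference was -0.06 (95% interval -0.32 to 0.19), for Aadat 0.11 (-0.19 to 0.40) and for Afmid -0.05 (-0.29 to 0.18). The joint fit put the difference between Akita and WT mice at 2.55 for Kynu and -1.04 for Aadat, from libraries that include those of Akita mice on MitoGamide.

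In WT mice given MitoGamide 0 of 9 members passed in edgeR and in DESeq2, with 0 at an unadjusted p under 0.05, as 10.6% of genes had in edgeR. Of all 17395 genes 0.00% passed in edgeR and 0.425% in DESeq2. Kynu was at 0.26 (95% interval -0.07 to 0.59) and Aadat at 0.15 (-0.09 to 0.39). The genotype by MitoGamide interaction draws on the ethanol vehicle values taken to be behind the choice of genes, so that it is no test of the members. It passed for 0.00% of genes in edgeR and in DESeq2.

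MitoQ was compared with water. In Akita mice 0 of 9 members passed in edgeR and in DESeq2, with 0 at an unadjusted p under 0.05 (1.96% of genes in edgeR), and 0.00% of genes passed. The intervals were wider than for MitoGamide, with Kynu at -0.30 (95% interval -0.94 to 0.34), Aadat at 0.45 (-0.05 to 0.95) and Afmid at 0.35 (-0.14 to 0.84). Without the libraries led by few genes, which left 6, again 0 passed, and 4 of 9 had an unadjusted p under 0.05, as 4.25% of all genes had, namely Kynu (-0.58), Kmo (-0.64), Acmsd (-0.44) and Afmid (0.79), each with an adjusted p of 0.827. In WT mice 0 of 10 passed in edgeR, with 0.00% of genes passing, and 0 in DESeq2, with 0.0112%, and 2 had an unadjusted p under 0.05 in edgeR, as 3.22% of genes had. Those were Tdo2 (-2.52, SE 0.72, adjusted p = 1.00), which falls under the count minimum without the WT library with liver transcripts, and Kyat1 (-0.26, SE 0.11, adjusted p = 1.00). Without the libraries led by few genes 0 of 10 passed (0.0227% of genes), and 3 had an unadjusted p under 0.05, as 21.2% of genes had, with Qprt (-0.46, adjusted p = 0.129) beside those 2. The genotype by MitoQ interaction passed for 0 of 10 members and for 0.00% of genes in edgeR and in DESeq2, with 1 member (Tdo2) at an unadjusted p under 0.05 (1.14% of genes in edgeR).

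**Figure D4:**
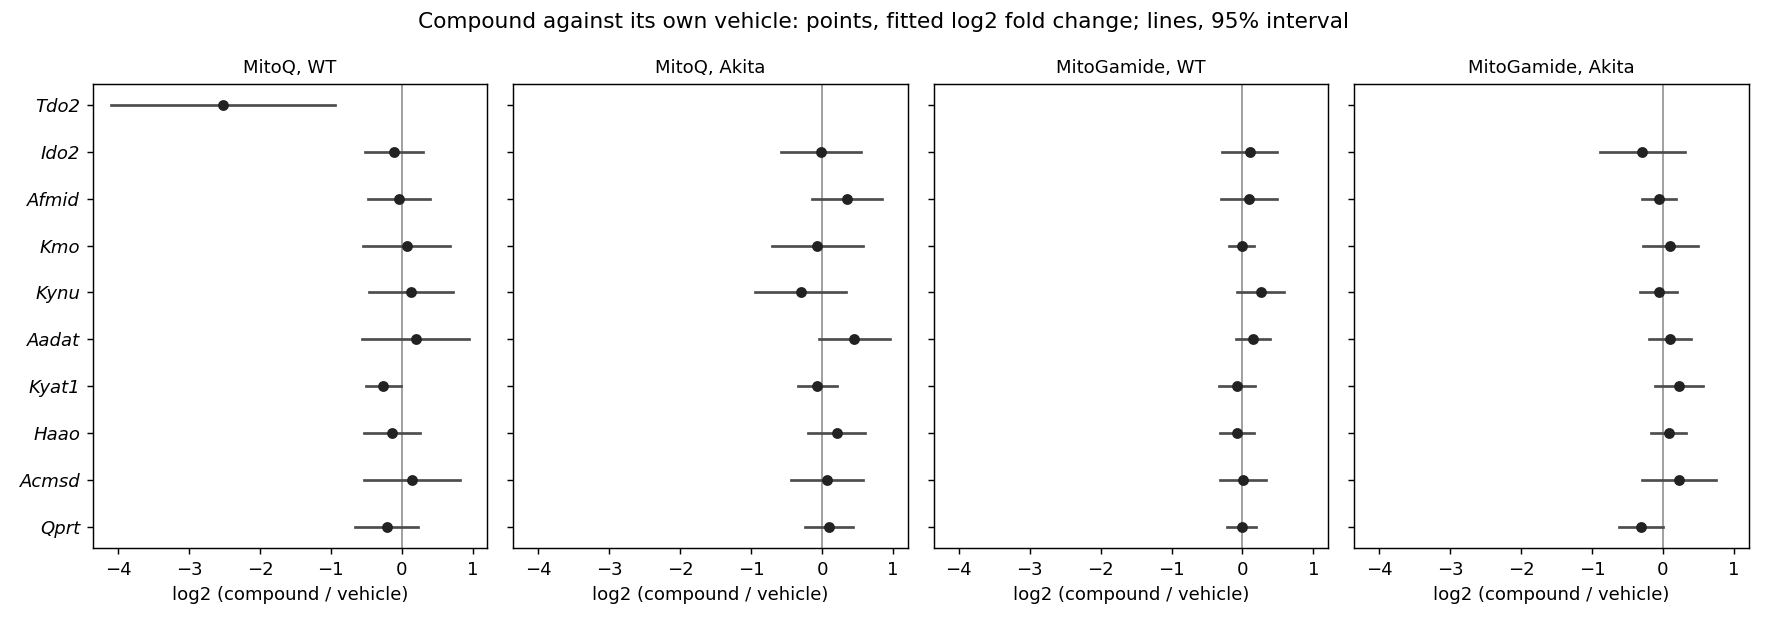
Fitted log2 fold change of MitoQ against water and of MitoGamide against the ethanol vehicle for each member in WT and Akita mice, with 95% intervals from edgeR fits on 10 libraries each. No interval for Kynu, Aadat or Afmid excludes 0, and those of the MitoQ panels are wider than those of the MitoGamide panels.

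The vehicles themselves were compared within genotype, although mice on ethanol and on water may differ in more than the vehicle, and such differences cannot be told apart from it. Here too the ethanol libraries are those of the difference taken to be behind the choice of genes, and the p-values of the members are not independent of it. In Akita mice on ethanol Qprt was higher than on water (39.6, 39.0, 35.0, 35.3 and 31.5 against 29.8, 19.96, 23.0, 22.9 and 22.8 CPM), without overlap, as for 4.86% of genes in this direction. Its log2 fold change was 0.62 (SE 0.12, adjusted p = 0.0296), and it was the 1 of 9 tested members that passed, where 12.7% of genes passed. The call was lost when the 3 Akita libraries on water led by few genes were left out (0.47, SE 0.12, adjusted p = 0.146), a fit in which 0.0335% of genes passed, and 6 of 10 times when a single library was removed. In WT mice 0 of 10 members and 0.00% of genes passed in edgeR, 4 members had an unadjusted p under 0.05, as 27.4% of genes had, and DESeq2 called 2 (Tdo2 and Kyat1), where 4.01% of genes passed. Without the libraries led by few genes 2 members (Tdo2 and Kyat1) had an unadjusted p under 0.05 in edgeR, as 8.88% of genes had, and 0 passed. For Tdo2 the edgeR value was -2.39 (SE 0.69, adjusted p = 0.145), and -1.21 (SE 0.43, adjusted p = 0.0951) without the WT library on water that held liver transcripts. Kyat1 had 73.0, 61.5, 72.5, 68.7 and 64.1 CPM on water and 60.9, 42.9, 48.2, 51.4 and 48.3 CPM on ethanol in these mice.

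Members were also compared with each other across mice of the same genotype, after subtracting each group's mean log2 CPM, so that genotype and treatment do not enter. Among the 9 members other than Tdo2 there were 36 pairs in each genotype, 72 relations in all. Haao and Afmid went together in both genotypes. In WT mice Pearson's r was 0.913 and Spearman's rho 0.895 over 20 mice, with permutation p of 1e-05, the smallest that 100000 permutations can give, and 2e-05, and adjusted p of 0.00072 and 0.00144. In Akita mice r was 0.867 and rho 0.878, with permutation p of 0.00019 and 9e-05 and adjusted p of 0.00684 and 0.00324. Leaving out the 2 mice farthest from the median of Haao gave r = 0.888 and 0.781, and leaving out the libraries led by few genes gave 0.925 and 0.919 over 16 mice each. This was the only pair with an adjusted p under 0.05 for Pearson's r in either genotype. By rank, Kmo and Aadat in WT mice also passed (rho = 0.798, permutation p = 0.00109, adjusted p = 0.0262), while their r of 0.791 did not (permutation p = 0.00882, adjusted p = 0.106). That r was 0.639 without the 2 farthest mice and 0.400 over 16 mice without the libraries led by few genes. Haao with Qprt in WT mice had r = 0.730 and rho = 0.675 (permutation p = 0.00214 and 0.00433, adjusted p = 0.0514 and 0.0779). Among 17768 other genes, chosen after these values were seen and given as a description over the 40 libraries, Haao was the gene most correlated with Afmid (r = 0.889), followed by Mtor (0.821) and Dnase1 (0.820), whereas Kynu ranked 16829th (r = -0.386).

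**Figure D5:**
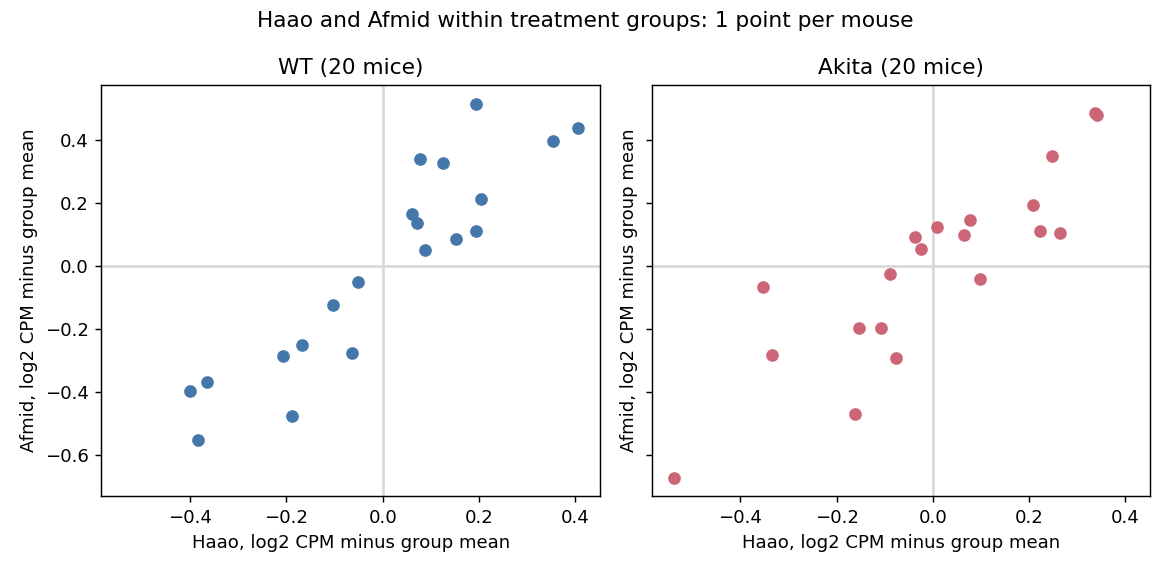
Haao (x axis) and Afmid (y axis) in each mouse as log2 CPM minus the mean of its own group of 5, for 20 WT mice (left) and 20 Akita mice (right). The points rise together in both genotypes, with r = 0.913 and 0.867.

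Since Haao and Afmid moved together from mouse to mouse, their promoters are shown, 250 bases before to 50 bases after the gene start of RefSeq on GRCm38.p6, in the direction of transcription. The Haao window is chr17:83846741-83847040 on the minus strand, and the gene model of GENCODE reaches further upstream. The Afmid window is chr11:117825669-117825968 on the plus strand. Capitals mark matches to the motifs searched.
Haao: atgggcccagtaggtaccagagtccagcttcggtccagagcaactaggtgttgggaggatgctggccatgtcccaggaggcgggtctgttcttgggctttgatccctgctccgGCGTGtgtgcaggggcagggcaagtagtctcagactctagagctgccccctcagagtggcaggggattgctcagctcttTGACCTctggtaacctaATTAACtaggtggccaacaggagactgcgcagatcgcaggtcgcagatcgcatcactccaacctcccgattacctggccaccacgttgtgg
Afmid: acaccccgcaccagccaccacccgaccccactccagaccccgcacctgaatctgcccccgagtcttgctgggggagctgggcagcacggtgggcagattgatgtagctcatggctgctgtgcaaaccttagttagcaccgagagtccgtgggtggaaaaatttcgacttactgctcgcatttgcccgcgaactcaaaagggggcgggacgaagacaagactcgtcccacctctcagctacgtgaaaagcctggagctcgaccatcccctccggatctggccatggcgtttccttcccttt
The 5 motifs were searched on both strands, except TATAAA on the forward strand, with no overlaps among the matches. The sequences were AGGTCA, the nuclear receptor hexamer, found in 16.3% of 32851 RefSeq promoter windows, GCGTG, the core of aryl hydrocarbon receptor elements (32.4%), CACGTG, an E box (7.15%), GTTAAT, the core of HNF1 elements (7.10%), and TATAAA (8.32%). Haao holds GCGTG 137 bases, the reverse of AGGTCA 58 bases and the reverse of GTTAAT 41 bases before the start, and the Afmid window holds none of the 5. Of the 8 members matched in the promoter table (Kynu and Ido2 were not), 3 hold AGGTCA (Acmsd, Tdo2 and Haao), 4 hold GCGTG (Acmsd, Kyat1, Tdo2 and Haao), and Qprt, Kmo and Aadat hold none. A match is a stretch of letters and not a shown binding site.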

How the data were processed

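The authors trimmed reads with Skewer, mapped them to GENCODE mouse v25 transcripts with kallisto 0.46.1 and summed transcripts per gene. The deposited values are estimated counts per gene, given as whole numbers and unscaled, and were used as such. Libraries were stranded. The 55401 rows were matched to GENCODE mouse release 21 (GRCm38) for positions and to RefSeq GRCm38.p6 for promoters, and 98.1% of identifiers were found.

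Each comparison was fitted on its own libraries in edgeR 4.0.16 (R 4.3.3) with TMM scaling and the quasi-likelihood test, keeping genes that averaged 10 counts or more. P-values were adjusted by Benjamini-Hochberg over all tested genes, and an adjusted p under 0.05 counted as passing. The joint genotype fit had arm as a covariate and 30 libraries. The study's methods name DESeq2, used here (1.42.0) as an alternative. Standard errors are the log2 fold change over the square root of F. Correlations used 100000 permutations within groups (numpy 2.4.6). Scripts were tested on simulated counts. Total counts of 9106654 to 24321424 per library set the precision of scarce genes.

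Alternatives were DESeq2's size factors, no count filter, a filter of 10 counts in each library, 1 fit of all 40 libraries, the replicate number as a block and each library left out in turn, and, added after the data were examined, the libraries led by few genes left out. The members and lists were chosen with earlier results of these data known. All 10 members are named, with up to 3 higher and 3 lower genes per list by smallest p in the joint fit and the 5 genes nearest to Kynu. The 5 mice of a group were separate animals. The result of 1 further list, of other nephron segments, is not reported here.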

Additional observations from a re-analysis of the deposited data

Results flagged for a closer look

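In Akita mice on MitoGamide, replicate 5 had 18.53 CPM of Qprt, below the 28.7 to 33.4 CPM of the other 4 mice, a gap large beside the range of the group. Among 80 groups of 5 tested in this way on a log scale for the 10 members, 1 was marked, where chance gives about 4. The mark depends on that scale, and on plain CPM other groups would have been marked instead. The same mouse carried the highest Kyat1 value (85.9 CPM) and the highest Kmo value (149.6 CPM) of all 40 mice and the lowest Ido2 value (1.82 CPM).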

How the results depend on the processing

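The direction of each member that passed a test was kept in all 321 refits of its fold change, and 280 also kept their side of the threshold; all 160 alternative group levels of the members moved by less than 1 SD between mice. Over 3 arms 4 (no filter, 5.08% of genes) to 7 members (without the libraries led by few genes, 19.6%) passed under the other settings and 4 to 6 when 1 library was left out, with Kynu, Aadat, Afmid and Qprt in each of these fits and Haao and Ido2 not in all, and with Tdo2 once. On MitoGamide, 4 passed with DESeq2 (18.5% of all genes) and with all 40 libraries (11.3%), against 3 (14.3%). Several counts moved. On water, 3 members passed with DESeq2 (1.93% of all genes), 6 with all 40 libraries (3.08%) and 3 without the libraries led by few genes (1.75%, a fit of 4 libraries), against 1 (0.552%). On MitoQ, 2 passed with all 40 libraries (1.73% of genes) and 2 without those libraries (1.43%), against 1 (0.557%), and 1 to 2 with 1 library left out. For MitoQ in WT mice, all 40 libraries gave 1 (0.101% of genes). For ethanol against water, Akita mice gave 2 without a filter (3.80% of genes), 3 with DESeq2 (23.8%) and 0 without the libraries led by few genes (0.0335%), against 1 (12.7%), and 0 to 3 with 1 library left out, and WT mice gave 2 with DESeq2 (4.01%), 2 with all 40 libraries (8.82%) and 0 to 4 with 1 library left out (4 without WT on water replicate 5). For all genes in that Akita comparison, 1 to 6496 passed with 1 library left out. The counts of members with 1 library left out are given without the share of all genes, which can move too. They are therefore not read as results about the members. The causes were not tested.

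With the replicate number as a block, 5 members passed over 3 arms (13.4% of genes) instead of 6, and 0 (0.00% of genes) instead of 1 for ethanol against water in Akita mice. Samples of the same number did not regularly deviate together, so that the numbers were not taken to pair the mice. At most 3 of 5 pairs correlated over 0.1 (on water between genotypes, r from -0.534 to 0.561, and for MitoQ against water in Akita mice, r from -0.189 to 0.738), and at most 2 of 5 samples correlated best with their own number. Depth limits Tdo2 and Ido1, of which few reads were seen.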
